A study of Mus musculus with 6 samples.

Results

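Forkhead transcription factors other than Foxa1, Foxa2 and Foxa3 were examined in sorted cells of tumours from a mouse pancreatic cancer model. The members are the protein-coding genes whose mouse symbol is Fox, a letter from b to s and a number, after the Ensembl identifiers of the deposited table had been matched to symbols. These were 34 of 25978 genes in the table, and levels were high enough to be tested for 21 of them. The annotation holds 41 such genes, and Foxb1, Foxb2, Foxd3, Foxe3, Foxi2, Foxr1 and Foxr2 were not analysed here. Primary pancreatic tumours came from KPCY mice on a C57BL/6 background, 5 to 7 weeks old, that carry Pdx1-Cre together with Trp53fl/fl and Rosa26LSL-YFP among their alleles. In these mice the Pdx1 promoter drives Cre recombinase in the pancreatic lineage, where it turns on yellow fluorescent protein (YFP) and deletes Trp53, so both sorted groups carry the same alleles. YFP-positive cells were divided by EpCAM, which epithelial cells carry on their surface, and RNA was sequenced from 3 libraries of EpCAM- cells and 3 libraries of EpCAM+ cells. Since Cre is active in normal pancreas as well, the fractions need not hold tumour cells alone. The study describes them as 3 biological replicates per group, and the sources used here do not say whether same-numbered libraries come from 1 tumour.

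Forkhead factors bind DNA through a conserved winged-helix domain and divide into lettered subfamilies. Foxo factors are kept out of the nucleus when AKT phosphorylates them and drive stress-response and cell-cycle-arrest genes when they return, Foxm1 drives genes of G2 and mitosis, and Foxj1 drives the genes of motile cilia. Foxc, Foxf, Foxl1 and Foxs1 are best known from mesenchyme and vessel walls, Foxp and Foxk factors act largely as repressors, and Foxq1 and Foxa factors are common in epithelia of the gut and its derivatives.

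Promoter sequences were taken from RefSeq (GRCm38.p6), which held an entry for 19 of the 34 members. Among the members that differed between the groups, entries existed for Foxo1 (chr3:52268087-52268336, plus strand), Foxk2 (chr11:121259737-121259986, plus strand) and Foxp4 (chr17:47924633-47924882, minus strand). These are shown because Foxo1 and Foxp4 fell in EpCAM- cells while Foxk2 rose. No entry was used for Foxc2, Foxj1, Foxk1, Foxm1, Foxo4, Foxo6, Foxp2, Foxq1 and Foxs1. Each line gives the 250 bases before the start site, 5′ to 3′ on the gene's own strand, with capitals for a CCAAT box (CCAAT or ATTGG) or an E-box (CAGGTG or CACCTG), searched on both strands.
Foxo1: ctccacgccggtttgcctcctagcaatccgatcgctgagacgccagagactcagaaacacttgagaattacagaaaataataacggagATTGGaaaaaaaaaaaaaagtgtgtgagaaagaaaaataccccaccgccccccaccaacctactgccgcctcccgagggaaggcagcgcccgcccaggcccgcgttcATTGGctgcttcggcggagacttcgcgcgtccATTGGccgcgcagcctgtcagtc
Foxk2: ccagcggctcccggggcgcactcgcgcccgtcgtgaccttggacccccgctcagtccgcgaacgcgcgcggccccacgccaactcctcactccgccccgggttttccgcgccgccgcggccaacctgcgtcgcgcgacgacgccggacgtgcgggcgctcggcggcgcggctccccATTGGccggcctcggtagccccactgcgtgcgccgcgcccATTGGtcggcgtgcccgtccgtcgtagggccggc
Foxp4: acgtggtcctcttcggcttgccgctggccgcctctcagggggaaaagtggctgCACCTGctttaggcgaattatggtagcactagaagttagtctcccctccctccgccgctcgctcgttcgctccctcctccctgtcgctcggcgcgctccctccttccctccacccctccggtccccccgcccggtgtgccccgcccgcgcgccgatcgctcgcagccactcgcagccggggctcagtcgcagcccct
The Foxo1 window held 3 CCAAT boxes, the Foxk2 window held 2, and the Foxp4 window held 1 E-box. A CCAAT box was present in 33.8% and this E-box in 17.2% of the 250-base windows of 32851 RefSeq promoters. The forkhead core GTAAACA or TGTTTAC, which 3.17% of all windows hold, the CHR letters TTTGAA or TTCAAA, in 16.0%, and the AP-1 letters TGACTCA or TGAGTCA, in 4.46%, were found in none of the 3 windows. No window held more than 1 kind of motif, so no matches of different motifs overlapped.

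Levels are the authors' normalised values on a log2 scale, from which no depth can be read, and levels of different genes were compared only per kb of exon. Values over all genes and libraries spanned -1.52 to 20.05 on the log2 scale. Epcam, whose protein was used for the sort, stood at 8.42, 8.22 and 7.22 in EpCAM- and at 15.06, 14.90 and 14.89 in EpCAM+ libraries, and all 12 epithelial markers tested fell. Markers of other cells moved with the groups. Of 13 fibroblast markers, 9 rose and 1 fell, and their back-transformed levels summed to 37301 to 171013 in EpCAM- libraries (lowest in replicate 3) and to 1900 to 14915 in EpCAM+ libraries (highest in replicate 1). Of 12 macrophage markers, 10 fell, with sums of 1006 to 1231 in EpCAM- and 4469 to 10875 in EpCAM+ libraries. Of 11 acinar markers, 10 fell, with sums of 563 to 759 in EpCAM- and 60197 to 120476 in EpCAM+ libraries. In bulk samples, fewer cells of a type and less RNA per cell cannot be told apart.

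Forkhead factors changed in both directions between the fractions. The epithelial factor Foxq1, the cilia factor Foxj1 and the Foxo members Foxo1, Foxo4 and Foxo6 were among those that fell in EpCAM- cells, and the mitotic factor Foxm1, Foxk2 and Foxs1 were among those that rose. With limma, and p-values adjusted over all genes by the Benjamini-Hochberg method to a threshold of 0.05, 4 of the 21 tested members were higher in EpCAM- cells, 9 were lower and 8 missed the threshold. The background was high: 43.4% of all 15783 tested genes passed, 20.3% as higher and 23.1% as lower in EpCAM- cells. Levels of the groups stood fully apart for 15 of the 21 tested members (7 higher and 8 lower in EpCAM- cells), beside 56.3% of all tested genes (27.1% higher and 29.2% lower). A call with a change of at least 1 log2 unit was made for 3 members that rose and 4 that fell, beside 9.36% and 14.5% of all tested genes. The median log2 fold change of the tested members was -0.15 and that of all tested genes was 0.0043, while the median absolute change was 0.61 for the members and 0.46 for all tested genes. Foxf2 and Foxs1 reached the level filter, a mean back-transformed value of 10, only through the EpCAM- libraries, so no support is drawn from their place in these counts. Foxq1, Foxj1, Foxo1, Foxp4 and Foxm1 kept their call in every alternative setting in which they were tested, 15 settings in all, of which Foxj1 was untested in the filter at a mean of 50. Without EpCAM+ replicate 1 and EpCAM- replicate 3 together, the libraries in which fibroblast markers stood apart, 2 members rose (Foxm1 and Foxs1) and 4 fell (Foxj1, Foxo1, Foxp4 and Foxq1). Calls were fewer over all tested genes too: 1907 rose and 2462 fell in that fit, against 3197 and 3653 with all 6 libraries.

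**Figure D1:**
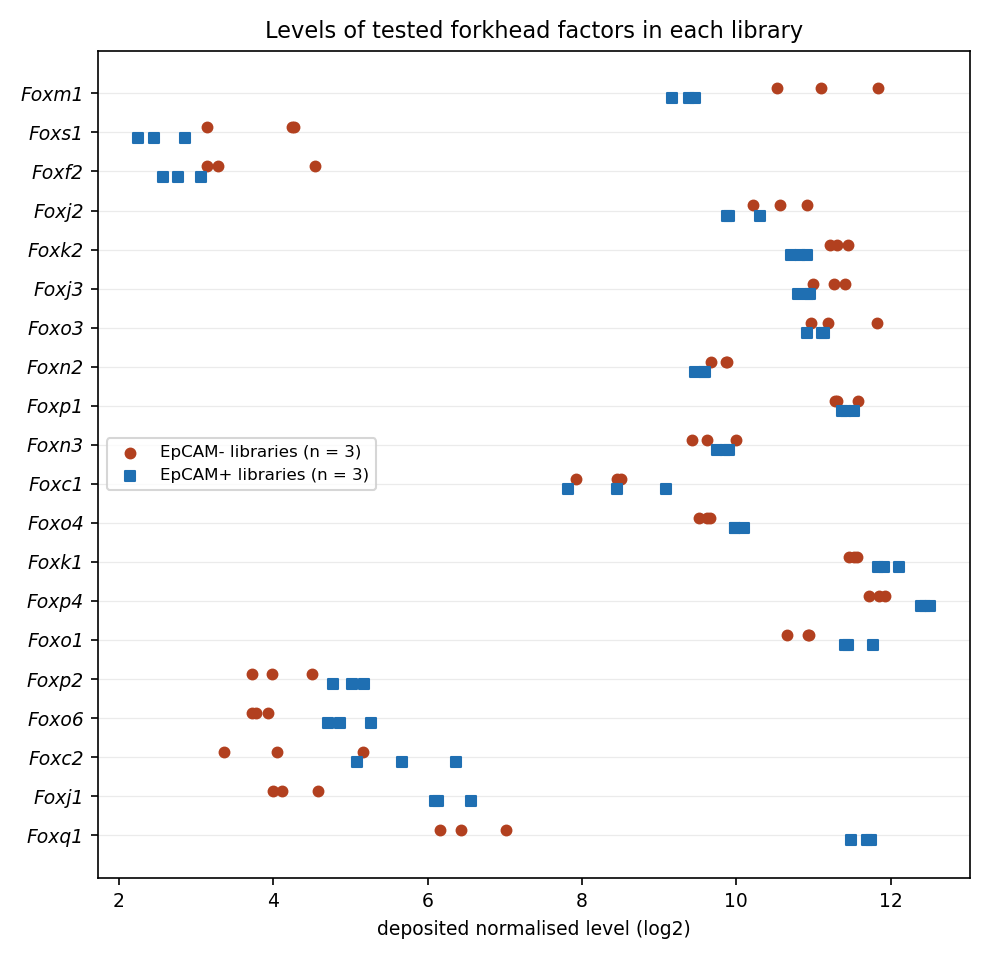
Deposited normalised level (log2, horizontal axis) of 20 tested forkhead factors in each EpCAM- library (circles) and each EpCAM+ library (squares), ordered by change. Foxq1 lies between 6.16 and 7.02 in EpCAM- and between 11.49 and 11.74 in EpCAM+ libraries, the widest gap in the plot.

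**Figure D2:**
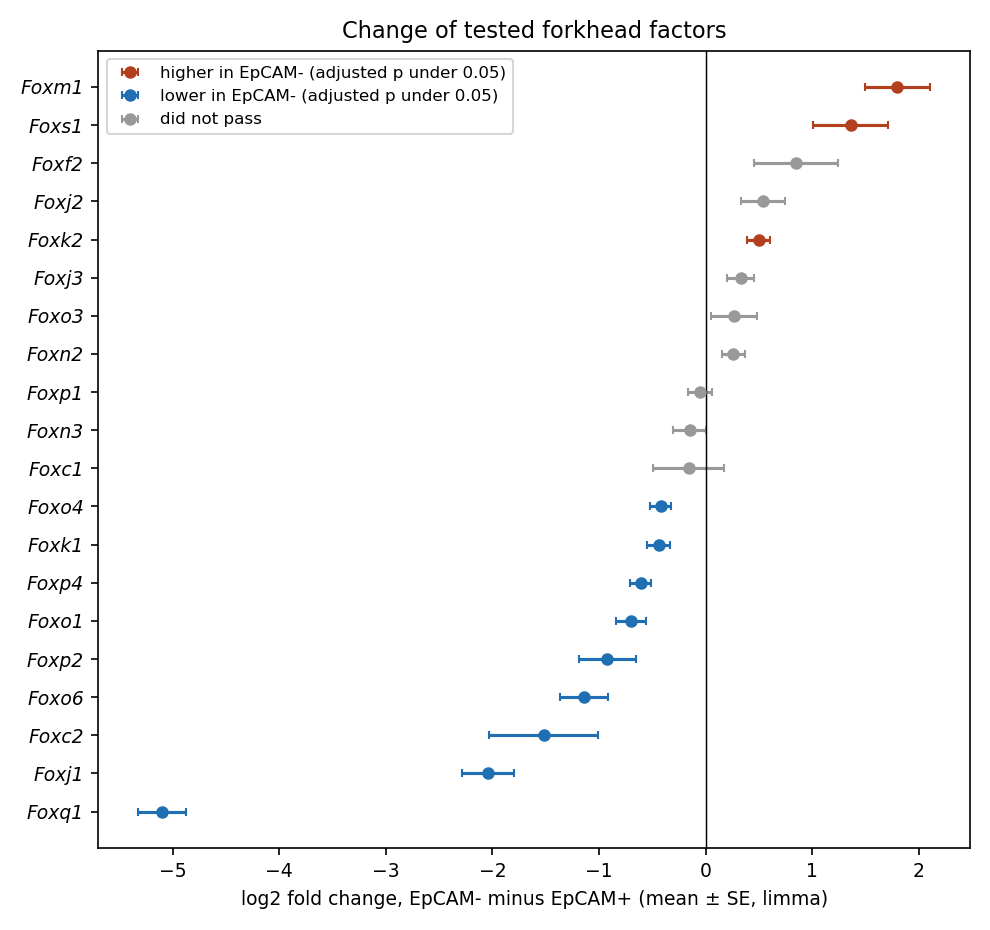
Log2 fold change (EpCAM- minus EpCAM+) of 20 tested forkhead factors, as the limma estimate with its SE. Of the 12 plotted members past the adjusted threshold, 3 lie to the right of 0 and 9 to the left, from Foxm1 at 1.80 to Foxq1 at -5.10.

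Foxq1, a factor of gut and secretory epithelium (ENSMUSG00000038415, GRCm38 chromosome 13, 31556134 to 31560976), fell most of all members. Its log2 level was 7.02, 6.16 and 6.44 in EpCAM- libraries, against 11.69, 11.49 and 11.74 in EpCAM+ libraries. Every EpCAM- library lay far below every EpCAM+ library, and EpCAM- replicate 1 was the highest of its group. The log2 fold change was -5.10 ± 0.22 (SE; limma adjusted p = 8.79e-06), which is 34.2-fold lower, and 231 of the 15783 tested genes fell further. Epithelial markers fell with it, as given above, and their part in this change was not tested. The gene A530084C06Rik lies on the opposite strand inside Foxq1 (31556134 to 31559333, sharing 3.2 kb) and fell by 2.11 on the log2 scale (SE 0.21; limma adjusted p = 0.000263). The sources used here do not say whether strand was used in counting, so reads of the pair cannot be told apart.

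Foxq1 shares a stretch of 256 kb on chromosome 13 with Foxf2 and Foxc1, and the changes of these neighbours did not pass. Foxf2, a factor of gut mesenchyme, stood at 4.54, 3.14 and 3.29 in EpCAM- libraries and at 2.58, 2.77 and 3.06 in EpCAM+ libraries. The groups did not overlap, but EpCAM- replicate 2 and EpCAM+ replicate 3 almost met and the change did not pass (0.85 ± 0.39, SE; limma adjusted p = 0.121). Foxc1, a factor of mesoderm and vessel development, overlapped between the groups at 8.46, 8.51 and 7.92 in EpCAM- and 8.46, 9.09 and 7.82 in EpCAM+ libraries (-0.16 ± 0.33, SE; limma adjusted p = 0.730). Gmds, an enzyme of fucose synthesis and the nearest coding gene beyond Foxc1, fell by 2.06 on the log2 scale (SE 0.19; limma adjusted p = 0.000196).

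Foxm1, the factor of the G2 and mitosis programme (ENSMUSG00000001517, chromosome 6, 128362967 to 128376146), was higher in every EpCAM- library. Its log2 level was 11.09, 11.83 and 10.52 in EpCAM- libraries, against 9.39, 9.47 and 9.17 in EpCAM+ libraries. The log2 fold change was 1.80 ± 0.31 (SE; limma adjusted p = 0.00327), which is 3.49-fold higher. Of 32 listed mitotic genes that are known Foxm1 targets or partners, all tested, 21 rose, 1 fell and 10 did not pass, beside 20.3% and 23.1% of all tested genes that rose and fell, and the median log2 fold change was 1.00. The mitotic kinesin Kif20a (1.65 ± 0.27, SE), cyclin B1, Ccnb1 (1.62 ± 0.35, SE), and the checkpoint kinase Bub1 (1.56 ± 0.26, SE) rose most. Lin37, a subunit of the DREAM and MuvB complexes, fell (-1.16 ± 0.23, SE). The proliferation marker Mki67 stood at 11.53, 11.01 and 11.33 in EpCAM- and at 11.06, 11.16 and 11.40 in EpCAM+ libraries and did not pass (0.09; limma adjusted p = 0.701), nor did the kinase Plk1 (-0.23; limma adjusted p = 0.675). The list's median level was 10.15, 9.49 and 9.55 in EpCAM- and 9.07, 8.61 and 8.58 in EpCAM+ libraries. It was highest in EpCAM- replicate 1, whereas Foxm1 was highest in EpCAM- replicate 2. The number that rose was 12 without EpCAM+ replicate 2 and 11 without EpCAM+ replicate 3, and 2 genes fell without EpCAM- replicate 1.

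**Figure D3:**
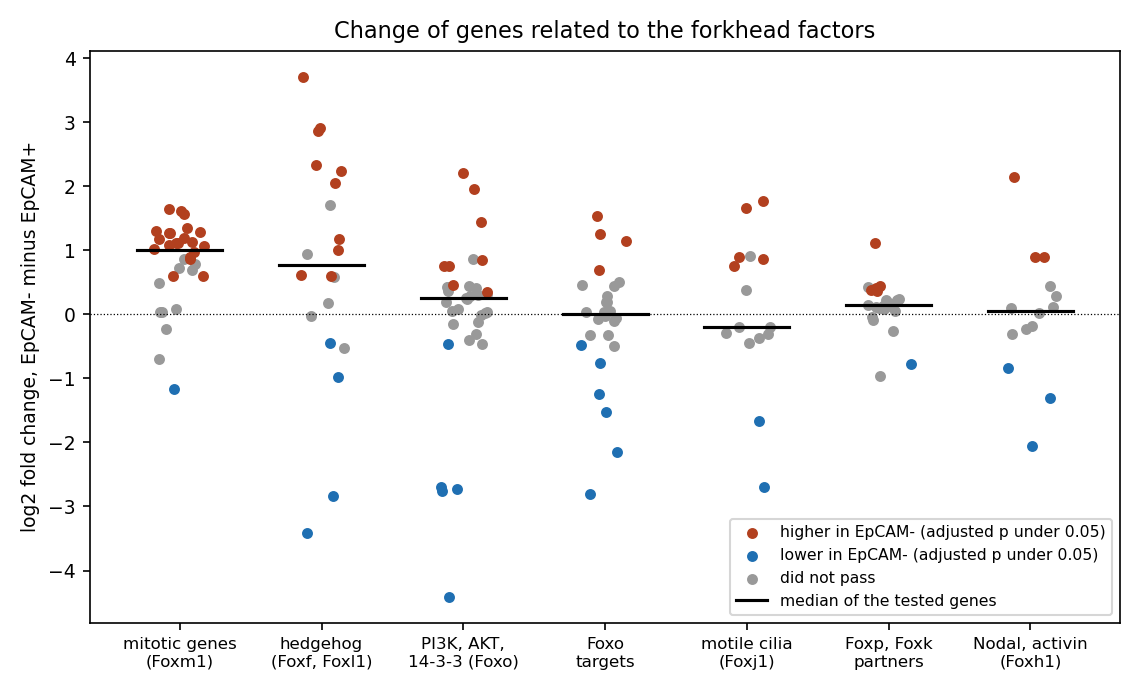
Log2 fold change (EpCAM- minus EpCAM+, vertical axis) of the tested genes of 7 lists related to forkhead factors, with a point per gene and a bar at each list's median. The mitotic list has its median at 1.00 and the Foxo targets at 0.0019, with members on both sides of 0 in every list.

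Foxj1, the master factor of motile cilia, fell in EpCAM- cells. Its log2 level was 4.0, 4.58 and 4.11 in EpCAM- libraries, against 6.14, 6.10 and 6.56 in EpCAM+ libraries, without overlap. The log2 fold change was -2.04 ± 0.25 (SE; limma adjusted p = 0.000669). Of 32 listed genes of the motile cilium, 30 were in the table and 15 were tested, of which 5 rose, 2 fell and 8 did not pass, beside 20.3% and 23.1% of all tested genes that rose and fell. The outer-arm dynein heavy chain Dnah9 fell by 2.70 on the log2 scale (SE 0.29) and Tmem212 by 1.67 (SE 0.21). Both reached the level filter only through the EpCAM+ libraries, with mean back-transformed values of 8.50 and 7.46 in EpCAM- libraries. Their calls are therefore given as a description. Ccno, a regulator of centriole amplification, rose by 1.77 ± 0.18 (SE), the axonemal gene Ccdc39 by 1.66 ± 0.29 (SE) and Cfap43 by 0.90 ± 0.20 (SE). The number that rose was 3 on leaving out any of EpCAM- replicate 2, EpCAM+ replicate 2 and EpCAM+ replicate 3, and with a filter at a mean of 50 it was 1. The number that fell was 4 with no filter, when more genes were tested, and 0 with the filter at 50, when fewer were.

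The ubiquitous members Foxj2 and Foxj3, which share the Foxj letter and not the role in cilia, did not pass. Foxj2 stood at 10.22, 10.92 and 10.57 in EpCAM- and at 9.88, 10.30 and 9.91 in EpCAM+ libraries (0.54 ± 0.20, SE; limma adjusted p = 0.0693). Foxj3 stood at 10.99, 11.41 and 11.27 in EpCAM- and at 10.95, 10.93 and 10.80 in EpCAM+ libraries (0.33 ± 0.13, SE; limma adjusted p = 0.0761). EpCAM- replicate 1 was the lowest EpCAM- library for both, and without it Foxj2 passed at an adjusted p of 0.0205 and Foxj3 at 0.0132 in limma. With array weights both passed too (limma adjusted p = 0.0223 and 0.0182), as did Foxj2 with the replicate number as a term (0.0147). Over all alternatives the adjusted p ranged from 0.0147 to 0.280 for Foxj2 and from 0.0132 to 0.257 for Foxj3 in limma. Frg2f1, which overlaps Foxj3 on the opposite strand, rose by 0.67 ± 0.21 (SE; limma adjusted p = 0.0406).

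Foxo1, Foxo4 and Foxo6 fell, and Foxo3 did not pass. Foxo1, a nuclear effector of low insulin signalling, had log2 levels of 10.65, 10.94 and 10.93 in EpCAM- libraries, against 11.44, 11.77 and 11.41 in EpCAM+ libraries, and fell by 0.70 (SE 0.14; limma adjusted p = 0.00608). Foxo4 stood at 9.66, 9.62 and 9.52 in EpCAM- and at 9.98, 10.10 and 9.98 in EpCAM+ libraries and fell by 0.42 (SE 0.099; limma adjusted p = 0.0131). Foxo6, a member best known from brain, stood at 3.93, 3.78 and 3.73 in EpCAM- and at 5.27, 4.71 and 4.87 in EpCAM+ libraries and fell by 1.14 (SE 0.22; limma adjusted p = 0.00592). The groups did not overlap for any of these. Foxo3 overlapped at 10.97, 11.82 and 11.19 in EpCAM- and 10.92, 11.14 and 11.11 in EpCAM+ libraries (0.27 ± 0.21, SE; limma adjusted p = 0.346). Foxo4 lost its call without EpCAM+ replicate 2 (limma adjusted p = 0.0545, between 0.00569 and 0.121 over all alternatives), and Foxo4 and Foxo6 both missed the threshold without EpCAM+ replicate 1 and EpCAM- replicate 3, at changes of -0.40 and -0.94 (limma adjusted p = 0.121 and 0.0608, for Foxo6 within 0.00378 to 0.0608). Per kb of exon, the log2 ratio of Foxo1 to Foxo3 was -0.52, -1.08 and -0.46 in EpCAM- libraries and 0.33, 0.43 and 0.11 in EpCAM+ libraries, so that Foxo3 was the higher of the pair in each EpCAM- library and Foxo1 in each EpCAM+ library. With 3 libraries against 3, an exact permutation test of such a ratio cannot give a p below 0.1.

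Most genes that act on Foxo factors did not pass, and neither did most tested genes of any kind. Of 35 tested genes of the PI3K, AKT, SGK and 14-3-3 group, 8 rose, 5 fell and 22 did not pass. Their median was 0.25, and 20.3% and 23.1% of all tested genes rose and fell. The kinase genes Akt1 (0.25; limma adjusted p = 0.236) and Akt2 (0.09; limma adjusted p = 0.643) did not pass. The Foxo ubiquitin ligase subunit Skp2 (1.96 ± 0.18, SE) and the kinase Sgk1 (1.44 ± 0.31, SE) rose. The epithelial 14-3-3 protein gene Sfn (-4.41 ± 0.15, SE), Inpp5d, a phosphatase of blood cells (-2.76 ± 0.53, SE), and the kinase Sgk3 (-2.73 ± 0.19, SE) fell. Inpp5d reached the level filter only through the EpCAM+ libraries, with a mean back-transformed value of 8.9 in EpCAM- libraries. Its call is therefore given as a description. Macrophage markers were higher in EpCAM+ libraries as well, as given above, and their part in the change of Inpp5d was not tested.

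Known Foxo targets were called about as often as other genes. Of 32 listed targets, 26 were tested, of which 4 rose, 6 fell and 16 did not pass, beside 20.3% and 23.1% of all tested genes that rose and fell, with a median of 0.0019. The mitophagy gene Bnip3 (1.54 ± 0.30, SE), the transcription factor Klf2 (1.25 ± 0.21, SE) and the stress sensor Sesn3 (1.14 ± 0.13, SE) rose. The selenium carrier Selenop (-2.81 ± 0.31, SE), the thioredoxin inhibitor Txnip (-2.15 ± 0.23, SE) and the ubiquitin ligase subunit Fbxo32 (-1.53 ± 0.26, SE) fell. The cell-cycle inhibitors Cdkn1a (0.28; limma adjusted p = 0.391) and Cdkn1b (-0.05; limma adjusted p = 0.821) did not pass. Leaving out EpCAM+ replicate 2 brought the number that fell to 3.

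The Foxk pair changed in opposite directions. Foxk1, a repressor of autophagy genes, stood at 11.56, 11.46 and 11.52 in EpCAM- libraries, against 11.83, 12.11 and 11.91 in EpCAM+ libraries, and fell by 0.44 (SE 0.11; limma adjusted p = 0.0146). Foxk2, its closest relative, stood at 11.44, 11.21 and 11.31 in EpCAM- libraries, against 10.91, 10.82 and 10.71 in EpCAM+ libraries, and rose by 0.50 ± 0.11 (SE; limma adjusted p = 0.00846). Neither gene's groups overlapped. Per kb of exon, the log2 ratio of Foxk1 to Foxk2 was -0.41, -0.28 and -0.32 in EpCAM- and 0.39, 0.76 and 0.67 in EpCAM+ libraries. The summed level of the pair per kb was 820 to 928 in EpCAM- and 825 to 928 in EpCAM+ libraries. Both lost their call without EpCAM+ replicate 1 and EpCAM- replicate 3, at changes of -0.50 (limma adjusted p = 0.0722, between 0.00533 and 0.0722 over all alternatives) and 0.56 (limma adjusted p = 0.0548, between 0.00434 and 0.0548).

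Among Foxp members, Foxp4 and Foxp2 fell. Foxp4, a repressor of lung and gut epithelium, stood at 11.72, 11.85 and 11.93 in EpCAM- libraries, against 12.39, 12.51 and 12.44 in EpCAM+ libraries, and fell by 0.61 (SE 0.099; limma adjusted p = 0.00259). The libraries of each group lay close together and the groups did not overlap. Foxp2, best known for its role in speech circuits of humans, stood at 3.99, 4.50 and 3.73 in EpCAM- and at 5.02, 4.77 and 5.18 in EpCAM+ libraries and fell by 0.92 (SE 0.26; limma adjusted p = 0.0276). Quantile normalization ended its call, as did leaving out replicate 1 or 3 of either group, at adjusted p between 0.0601 and 0.0962 in limma, within a range of 0.0129 to 0.173 over all alternatives. Foxp1, at 11.58, 11.30 and 11.28 in EpCAM- and 11.42, 11.52 and 11.37 in EpCAM+ libraries, did not pass (-0.05 ± 0.115, SE; limma adjusted p = 0.767). The regulatory T cell factor Foxp3 was below the filter, at 2.34 to 2.54 in EpCAM- and 2.04 to 2.32 in EpCAM+ libraries, and the part of T cells in its level was not tested. Of 13 T cell markers, 2 were tested, of which none rose and 1 fell. The back-transformed levels of all 13 summed to 326 to 435 in EpCAM- and 803 to 912 in EpCAM+ libraries.

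Most partners of Foxp and Foxk factors did not pass, while 43.4% of all tested genes passed. Of 22 tested corepressor and partner genes, 5 rose, 1 fell and 16 did not pass. Their median was 0.14, and 20.3% and 23.1% of all tested genes rose and fell. Dvl2, a Wnt signal protein that Foxk factors carry into the nucleus in human cells, rose by 1.11 ± 0.11 (SE), the corepressor Sin3b by 0.44 ± 0.090 (SE) and Gatad2b by 0.41 ± 0.11 (SE), and the corepressor Ctbp2 fell by 0.77 (SE 0.16). The number that rose was 3 on leaving out any of EpCAM- replicate 2, EpCAM+ replicate 1 and EpCAM+ replicate 2. It was 2 on leaving out EpCAM- replicate 3 or EpCAM+ replicate 3, and 3 fell without EpCAM- replicate 1. Without EpCAM+ replicate 1 and EpCAM- replicate 3 together, 1 rose and none fell.

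Foxc2 and Foxs1, factors of mesenchyme and vessel walls, had calls that leaving out 1 library could end. Foxc2 stood at 5.16, 4.05 and 3.37 in EpCAM- libraries, against 5.67, 6.37 and 5.09 in EpCAM+ libraries, so the groups overlapped. Its fall of 1.52 (SE 0.51) was just past the threshold (limma adjusted p = 0.0497) and was lost with no filter, after quantile normalization and without any library other than EpCAM- replicate 1, at adjusted p between 0.0552 and 0.144, within a range of 0.0129 to 0.210 over all alternatives. Its whole span lies inside the annotated gene Gm20388 on the same strand, which rose by 0.77 ± 0.13 (SE; limma adjusted p = 0.00364), so reads of the pair may be split between them. Foxs1, a factor of pericytes, stood at 4.27, 4.24 and 3.15 in EpCAM- libraries, against 2.86, 2.46 and 2.25 in EpCAM+ libraries, and rose by 1.36 ± 0.36 (SE; limma adjusted p = 0.0195). It was tested only because its EpCAM- levels lifted its mean over the filter, so its call is given as a description. Like the fibroblast markers, Foxs1 was lowest of the EpCAM- libraries in replicate 3 and highest of the EpCAM+ libraries in replicate 1, and the part of such cells in its change was not tested. It was 1.90 without those libraries, and it lost its call without EpCAM- replicate 1 or 2 or EpCAM+ replicate 2 or 3, at adjusted p between 0.0518 and 0.0725, within a range of 0.00441 to 0.0725 over all alternatives in limma. Of 9 tested pericyte and smooth muscle markers, 1 rose and 2 fell. All 11 such markers, tested or not, summed to 2086 to 2523 in EpCAM- and 2597 to 4524 in EpCAM+ libraries. Of 8 tested endothelial markers, 2 rose and 2 fell. All 14 such markers, tested or not, summed to 4273 to 9617 in EpCAM- and 1377 to 2407 in EpCAM+ libraries.

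Foxf1 and Foxl1, which hedgehog signals turn on in gut mesenchyme, were below the filter. Foxf1 stood at 2.79, 2.15 and 2.26 in EpCAM- and at 2.14, 1.90 and 1.88 in EpCAM+ libraries, and Foxl1 at 1.42 to 1.79 in EpCAM- and 1.81 to 1.88 in EpCAM+ libraries. They share 46.3 kb of chromosome 8 with Foxc2. Within that stretch Mthfsd, whose product resembles a folate enzyme, fell by 0.52 (SE 0.16; limma adjusted p = 0.0359), and the noncoding gene Fendrr, which lies beside Foxf1, was at -1.08 to -1.01 in EpCAM- and -1.07 to -1.0 in EpCAM+ libraries. Irf8, a factor of myeloid cells and the nearest coding gene on the Foxf1 side, fell by 1.81 (SE 0.45; limma adjusted p = 0.0163), as macrophage markers did, and their part in it was not tested.

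Hedgehog ligands and effectors moved apart. Of 21 hedgehog genes, 20 were tested, of which 10 rose, 4 fell and 6 did not pass. Their median was 0.78, and 20.3% and 23.1% of all tested genes rose and fell. All 3 ligands fell: Ihh by 3.41 (SE 0.24), Shh by 2.83 (SE 0.36) and Dhh by 0.98 (SE 0.27). Shh stood at 2.36, 2.80 and 3.27 in EpCAM- libraries, against 5.30, 5.33 and 6.30 in EpCAM+ libraries. The transcription factor Gli3 stood at 10.32, 10.59 and 10.67 in EpCAM- libraries, against 6.98, 6.86 and 6.6 in EpCAM+ libraries, and rose by 3.71 ± 0.16 (SE; limma adjusted p = 7.75e-06). Gli2 (2.91 ± 0.81, SE), the ligand decoy Hhip (2.86 ± 0.54, SE) and the target gene Gli1 (2.33 ± 0.71, SE) rose too, while the receptor and target gene Ptch1 fell by 0.45 (SE 0.14). Shh reached the level filter only through the EpCAM+ libraries, with a mean back-transformed value of 7.24 in EpCAM- libraries. Gli1 and Gli2 reached it only through the EpCAM- libraries, at 7.6 and 9.47 in EpCAM+ libraries. The calls of Shh, Gli1 and Gli2 are therefore given as a description. Gli1 and Gli2 were lowest of the EpCAM- libraries in replicate 3, at 3.55 and 4.24, as were the fibroblast markers, and whether fibroblasts had a part in these changes was not tested. The number that fell was 2 without EpCAM- replicate 2 or 3 or EpCAM+ replicate 2 or 3, and after quantile normalization.

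Foxn2 and Foxn3, broadly expressed factors of the Foxn group, did not pass. Foxn2 stood at 9.67, 9.87 and 9.88 in EpCAM- and at 9.60, 9.58 and 9.46 in EpCAM+ libraries (0.26 ± 0.11, SE; limma adjusted p = 0.0932). Its groups did not overlap. It passed without EpCAM- replicate 1 (limma adjusted p = 0.0372), after quantile normalization (0.0433) and with array weights (0.0306), within a range of 0.0306 to 0.328 over all alternatives. Foxn3 overlapped, at 9.62, 9.99 and 9.43 in EpCAM- and 9.85, 9.90 and 9.75 in EpCAM+ libraries (-0.15 ± 0.16, SE; limma adjusted p = 0.471).

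The remaining members lay near the bottom of the scale. The 13 members below the filter ranged from -1.51 to 3.87 over all libraries and, beside Foxf1, Foxl1 and Foxp3, are Foxd1, Foxd2, Foxd4, Foxe1, Foxh1, Foxi1, Foxi3, Foxl2, Foxn1 and Foxn4. Foxi1, the factor of acid-secreting ionocytes, came closest to the filter with a mean back-transformed value of 8.55, and Foxf2 was the nearest above it at 10.5. Foxi1 stood at 2.03, 2.05 and 2.04 in EpCAM- and at 3.87, 3.40 and 3.79 in EpCAM+ libraries, and when no filter was used its change of -1.64 ± 0.19 (SE) passed (limma adjusted p = 0.00057). The thymus factor Foxn1 stood at 1.12 in each EpCAM- library and at 1.55, 1.45 and 1.90 in EpCAM+ libraries (-0.52 ± 0.14, SE; limma adjusted p = 0.0304 with no filter). Both genes were nearly flat in EpCAM- libraries, with an SD of 0.012 for Foxi1 and 0.0026 for Foxn1. Their calls without a filter are therefore given as a description. The other 11 members below the filter did not pass when no filter was used. At such levels the deposited values vary little, with a median SD over the 6 libraries of 0.0625 for genes with a mean below 0 and 0.594 for genes with a mean between 4 and 6. Foxh1, the partner of Smad proteins in Nodal signalling, was at 0.12 in each EpCAM- library and at 0.41, 0.12 and 0.41 in EpCAM+ libraries. Of 14 tested Nodal and activin genes, 3 rose, 3 fell and 8 did not pass. Their median was 0.063, and 20.3% and 23.1% of all tested genes rose and fell. The activin subunit gene Inhba rose by 2.15 ± 0.30 (SE), Ski by 0.90 ± 0.12 (SE) and Lefty1 by 0.90 ± 0.21 (SE). The activin antagonist gene Fst fell by 2.06 (SE 0.34), and the receptor genes Acvr1b and Acvr2b by 1.31 (SE 0.13) and 0.84 (SE 0.23).

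To compare members with each other, back-transformed levels were divided by the exonic length of each gene in kb. Summed over the 34 members, this level was 3900 to 4380 in EpCAM- and 4510 to 4920 in EpCAM+ libraries, without overlap. Foxq1 alone gave 14.8 to 26.9 of this sum in EpCAM- and 592 to 705 in EpCAM+ libraries. The gap between the sums therefore need not hold for the other members. Foxp4 had the highest level per kb in both groups, averaging 742 ± 52.8 in EpCAM- libraries and 1135 ± 47.6 in EpCAM+ libraries (SD, n = 3 each). Foxq1 ranked 15 in EpCAM- libraries, at 19.8 ± 6.28, and came next after Foxp4 in EpCAM+ libraries, at 659 ± 59.4 (SD, n = 3 each). Foxk2 at 487 ± 40.8 and Foxm1 at 422.5 ± 192.8 followed Foxp4 in EpCAM- libraries (SD, n = 3), an order that their spread does not settle. Foxq1 made 0.337% to 0.689% of the family's summed level in EpCAM- and 12% to 15.6% in EpCAM+ libraries. Foxm1 made 6.42% to 14.5% in EpCAM- and 2.22% to 2.58% in EpCAM+ libraries. The 4 Foxo factors together made 17.7% to 21.3% in EpCAM- and 19.5% to 20.8% in EpCAM+ libraries.

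**Figure D4:**
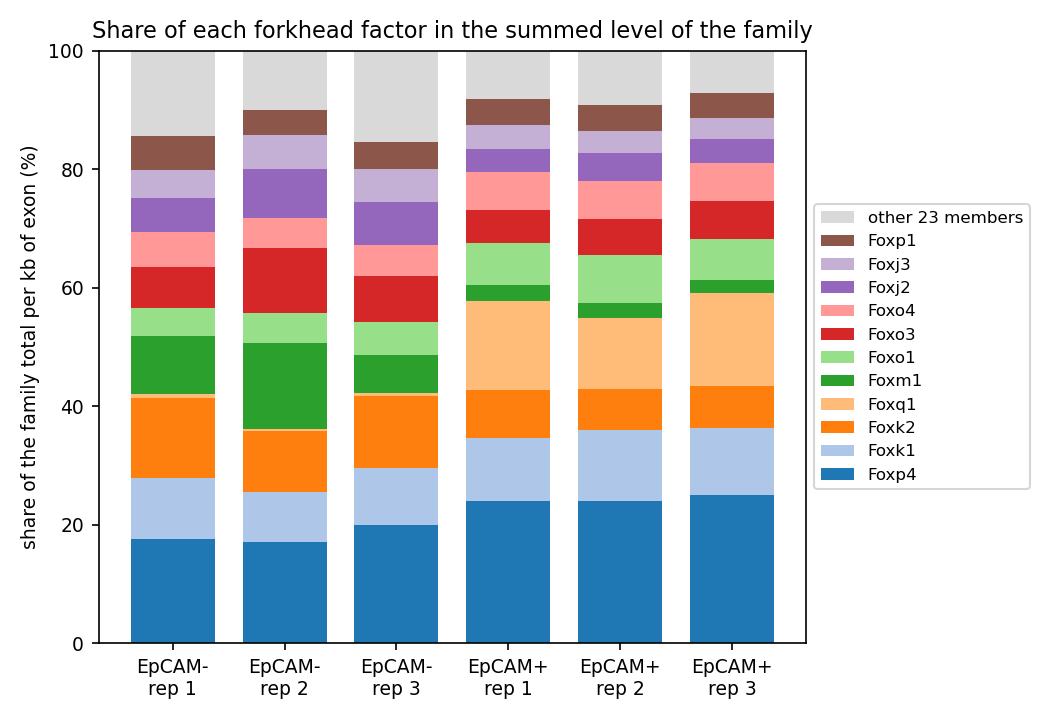
Share of 11 forkhead factors and of the other 23 members together in the summed level of the 34 members per kb of exon (%), in each EpCAM- and each EpCAM+ library. Foxq1 takes 0.337% to 0.689% of the EpCAM- bars and 12% to 15.6% of the EpCAM+ bars, and Foxm1 takes 6.42% to 14.5% of the EpCAM- bars and 2.22% to 2.58% of the EpCAM+ bars.

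The Foxa factors, which open chromatin of gut and pancreas genes, all fell. Foxa3 stood at 4.45, 4.27 and 4.51 in EpCAM- and at 9.04, 8.70 and 8.89 in EpCAM+ libraries and changed by -4.46 ± 0.18 (SE) beside the -5.10 of Foxq1. Foxa1 (-1.54 ± 0.42, SE) and Foxa2 (-1.49 ± 0.34, SE) fell less, and Foxa1 lost its call without any one library other than EpCAM- replicate 3 (limma adjusted p between 0.0501 and 0.0767, within a range of 0.000694 to 0.0767 over all alternatives). Foxa2 lost its call without EpCAM+ replicate 1 and EpCAM- replicate 3 (limma adjusted p = 0.0537, between 0.00256 and 0.0537).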

How the data were processed

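RNA of 3 EpCAM- and 3 EpCAM+ libraries was measured. A KAPA mRNA kit was used, per the labels' protocols. DESeq2 1.24.0, RSEM, STAR 2.5.2 and the build GRCm38 are named per the submitters' processing notes, without role or order. The authors deposited normalised values on a log2 scale. The transform, the annotation and the use of strand are not given in the sources used here. As the transform is unknown, changes of low genes may be compressed. Folds, back-transformed sums and shares per kb hold for the deposited scale only. With no counts, depth is unknown and no interval that needs it is given.

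Identifiers were matched to GENCODE M21 (GRCm38), 25846 with and 132 without a match. The deposited values went into limma (version 3.58.1, R version 4.3.3) with a trended prior variance and no covariate, after genes whose back-transformed mean was below 10 had been removed. P-values are two-sided and adjusted by Benjamini-Hochberg over all 15783 tested genes (threshold 0.05). Fold changes are EpCAM- minus EpCAM+. Exonic length is the union of a gene's annotated exons. The members and the gene lists were chosen with earlier results of these data known. Every member could be named. From each list, up to 3 genes with the largest change in each direction among those past the test were named. A few genes, such as Mki67 and Ptch1, were named in any case, and genes beside the members by position. A530084C06Rik, Gm20388, Frg2f1 and Mthfsd were added after their values were seen.

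The fit was tested on simulated data with known changes, in far fewer genes than passed in the real data. It recovered 8% of changes of 0.5 log2 units, 36% of 1, 72% of 2 and 96% of 4. With fewer changed genes the adjusted threshold is stricter, so these rates do not carry over to the real data. There, Foxo4, Foxk1 and Foxk2 passed at changes of -0.42, -0.44 and 0.50. Members that did not pass may still differ by small amounts. Alternatives were pseudocounts of 1 and 5, no filter, a filter at 50, upper-quartile scaling, quantile normalization, a replicate block, array weights, each library left out, and a fit without both EpCAM+ replicate 1 and EpCAM- replicate 3. Some genes that the counts include are not reported here. P-values cover only how these samples vary among themselves.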

Additional observations from a re-analysis of the deposited data

How the results depend on the processing

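Across the 15 alternatives, 5 of the 13 called members (Foxj1, Foxm1, Foxo1, Foxp4 and Foxq1) kept their call in each setting in which they were tested. The number of forkhead members that rose, 4, was 7 with array weights and 2 without both EpCAM+ replicate 1 and EpCAM- replicate 3, and it ranged from 3 to 6 when a single library was left out. The number that fell, 9, was 5 with a filter at a mean of 50, as fewer members were tested, and 4 without both of those libraries, and it ranged from 7 to 8 when a single library was left out. Of all tested genes, 3197 rose and 3653 fell. Leaving out a single library gave 2134 to 3325 that rose and 2853 to 3975 that fell. Leaving out both libraries gave 1907 that rose and 2462 that fell. Only members that had not passed changed direction. Foxc1, at -0.16, was at 0.040 after quantile normalization and at 0.031 without both libraries, and it ranged from -0.48 to 0.16 when a single library was left out, being 0.030 when that was EpCAM- replicate 3 and 0.16 when it was EpCAM+ replicate 2. Foxp1, at -0.05, ranged from -0.14 to 0.0058, the highest when EpCAM- replicate 3 was left out. The cause of these changes was not tested. Quantile normalization moved the median of all genes to 0.13 log2 units. Under the replicate block, with the replicate number as a term, 5 members rose, Foxj2 being the added member, 9 fell and 7090 of all genes passed. Libraries with the same number deviated together with correlations over genes of 0.41, 0.044 and 0.16, and those with different numbers with -0.34 to 0.23. As not every same-numbered pair exceeded 0.1, the main fit did not pair the libraries. With 3 libraries per group, such correlations cannot settle whether the libraries are paired. EpCAM- replicate 1 correlated best with its own number, but EpCAM- replicate 2 did so with EpCAM+ replicate 3 (0.13) and EpCAM- replicate 3 with EpCAM+ replicate 2 (0.23). The number of libraries and the unknown depth limit what low members can show.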
